A study of Mus musculus with 15 samples.

Results

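LSK cells that carried a HOXB4 vector were compared between 20 and 12 weeks after transplantation, which asks how stable their expression was late in the graft. LSK cells are the lineage-negative, Sca-1+ and Kit+ fraction of bone marrow, which holds blood stem cells and early progenitors. The comparison took the arrays titled for HOXB4+ LSK cells at these times, 3 at 20 weeks and 3 at 12 weeks, which are 6 of the 15 arrays of the series. The other arrays, 3 each of HOXB4 cells at 6 weeks and of cells with a GFP vector at 12 and 20 weeks, entered the same model and served as background.

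All 5 groups came from female C57Bl/6 marrow, the donors having received 5-fluorouracil. The marrow was transduced with a retrovirus, MSCV-HOXB4-ires-YFP in the HOXB4 groups and MSCV-ires-GFP in the control groups, and was transplanted into lethally irradiated mice. The fluorescent LSK cells were sorted and were not cultured. In this vector HOXB4 is placed under the retroviral promoter, and a sorted sample may pool several transduced clones. Neither expression from the vector nor the number of clones was measured here. The titles give 20 weeks for the last time and the series text gives 24, and the times of the titles were used. Whether the 3 arrays of a group are separate mice is not stated in the labels, and the p-values then reflect array-to-array spread, possibly technical.

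HOXB4 is a homeobox transcription factor, and such factors bind short AT-rich DNA motifs together with cofactors of the Pbx and Meis families. Forced HOXB4 expression is known for expanding blood stem cells without blocking their differentiation. In bulk RNA of a sorted fraction, a lower signal from fewer cells of a type and from less RNA per cell cannot be told apart.

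Few genes passed the threshold between 12 and 20 weeks in HOXB4 cells. Of 17097 genes tested, 43 passed at an adjusted p under 0.05, which is 0.252% of them, and 11 rose (0.0643%) while 32 fell (0.187%). A change of at least 2-fold was reached by 5 of the genes that rose (0.0292% of all genes) and 24 of those that fell (0.14%). At an unadjusted p under 0.05, 1908 genes (11.2%) were counted in HOXB4 cells and 2247 in GFP cells. The median absolute difference over all genes was 0.132 log2 units in HOXB4 and 0.128 in GFP cells. A gene that was not called is thus not shown to be unchanged. In GFP cells over the same times 406 genes passed (2.37%), with 211 higher (1.23%) and 195 lower (1.14%). These counts depend on single arrays. Without replicate 1, 2 or 3 of the 12-week HOXB4 arrays the count of 43 became 11, 1 and 1, and without replicate 1, 2 or 3 of the 20-week arrays it became 101, 2 and 18. With replicate 2 or 3 of the 12-week arrays left out, Mup3 alone kept its call. The count was 65 without replicate 1 of the 6-week HOXB4 arrays and 135 without any 6-week array, and all 43 were among those 135. The split of 11 higher and 32 lower became 4 and 29 after a further quantile normalization. It also depends on the probe sets counted. Over the 28898 named probe sets 12 were called higher and 29 lower. Over all 45037 probe sets but controls, those without a single gene symbol included, 76 were called higher and 90 lower. The counts of 11 and 32 thus describe named genes and not the whole array.

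The arrays bounded the change of the signal for most genes. The 95% confidence interval of the difference lay wholly within a 2-fold change in either direction for 16257 genes (95.1%) in HOXB4 cells and for 15925 (93.1%) in GFP cells. It lay wholly outside 2-fold for 11 genes in HOXB4 and 78 in GFP cells. The median half-width of the interval was 0.33 log2 units in both, since all groups share 1 estimate of the spread. These limits hold for the signal and not always for the RNA. The 20-week HOXB4 mean was below 6 for 53.4% of all genes, where a value may be background and need not follow the RNA. The intervals also rest on array-to-array spread, which is possibly technical.

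The 20-week arrays stood apart from the 12-week ones in 2 quality readings. The mean of the Dap spike control was 9.22 to 9.82 at 12 weeks and 10.3 to 11.8 at 20 weeks in HOXB4 cells, with no overlap, against 9.45 to 9.65 and 9.44 to 12.7 in GFP cells. The Gapdh signal of the 3' probe set minus that of the 5' probe set, a reading of RNA integrity, was 0.93 to 1.02 at 12 weeks and 1.21 to 2.02 at 20 weeks in HOXB4 cells, against at most 1.25 and 1.37 in GFP cells, and it was 3.76 in replicate 1 of the 6-week HOXB4 arrays. Replicates were also less alike at 20 weeks, with a median SD per gene of 0.18 against 0.11 at 12 weeks in HOXB4 cells. Both readings move with the comparison, and their part in the results was not tested.

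Before the values, 4 promoters of genes with large changes are shown, because a homeobox factor defines the groups. Those of Tmem245 (log2 difference 1.28) and Zfp936 (-2.27) were searched but are not shown. These 2 genes changed more than some of the genes shown. Each runs from 250 bases before to 50 bases after the start of transcription, 5' to 3' on the strand of the gene, from RefSeq on GRCm38.p6. Capitals mark matches to TAATNA on either strand, the core letters of a homeobox motif. Lrrc4 (chr6:28831698-28831997, minus strand) and Rhbdd1 (chr1:82316329-82316628, plus strand) rose, and Mup3 (chr4:62087268-62087567, minus strand) and Chil4 (chr3:106219430-106219729, minus strand) fell. For Rhbdd1 the first of 2 entries is shown.
Lrrc4: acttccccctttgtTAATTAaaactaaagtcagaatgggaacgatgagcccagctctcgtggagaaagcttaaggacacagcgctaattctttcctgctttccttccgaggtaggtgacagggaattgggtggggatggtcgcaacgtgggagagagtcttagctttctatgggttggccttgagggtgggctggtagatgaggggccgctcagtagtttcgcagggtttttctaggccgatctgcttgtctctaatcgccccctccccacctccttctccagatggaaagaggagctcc
Rhbdd1: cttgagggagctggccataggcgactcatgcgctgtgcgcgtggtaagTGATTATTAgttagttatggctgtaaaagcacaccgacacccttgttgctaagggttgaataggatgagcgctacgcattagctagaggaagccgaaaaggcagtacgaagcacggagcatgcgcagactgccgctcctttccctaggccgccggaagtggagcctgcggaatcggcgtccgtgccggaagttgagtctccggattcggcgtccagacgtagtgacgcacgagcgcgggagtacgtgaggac
Mup3: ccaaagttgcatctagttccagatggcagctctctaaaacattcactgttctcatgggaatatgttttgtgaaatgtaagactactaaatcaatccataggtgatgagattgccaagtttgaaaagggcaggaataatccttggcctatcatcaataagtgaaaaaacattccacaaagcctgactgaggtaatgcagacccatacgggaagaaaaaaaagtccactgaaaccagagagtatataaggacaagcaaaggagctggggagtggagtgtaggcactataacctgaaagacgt
Chil4: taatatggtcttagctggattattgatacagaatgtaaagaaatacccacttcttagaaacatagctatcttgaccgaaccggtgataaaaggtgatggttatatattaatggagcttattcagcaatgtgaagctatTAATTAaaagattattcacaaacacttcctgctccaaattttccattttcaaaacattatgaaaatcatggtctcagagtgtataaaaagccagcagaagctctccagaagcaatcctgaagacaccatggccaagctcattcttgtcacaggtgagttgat
Lrrc4 held 1 match, at position -236 from the start, Chil4 held 1, at -112, and Rhbdd1 held 2 that overlap. The promoters of Mup3, Tmem245 and Zfp936 held 0. The motif was present in 4 of 12 promoters of genes that rose (33.3%) and 7 of 24 of genes that fell (29.2%), against 26.5% of all 32851 promoters of this length. Of the 43 genes, 32 had an entry. The other motifs were searched on both strands too. AP-1, TGANTCA, was in 0 and 1 of these promoters against 7.81% of all. GATA, searched as TGATAA and in a second spelling that opens with A, AGATAA, was in 2 (16.7%) and 9 (37.5%) against 18.6%. Ets, GAGGAA, was in 3 of 12 and 4 of 24 against 28.3%. C/EBP, TTNCNNAA, was in 2 (16.7%) and 11 (45.8%) against 40.7%. These are matches of letters and not binding sites.

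Mup3 fell furthest. It is a major urinary protein, a lipocalin secreted by the liver that carries pheromones. Its log2 signal was 7.05, 6.83 and 7.02 on the 12-week HOXB4 arrays and 2.96, 2.62 and 2.85 on the 20-week arrays. All 6 GFP arrays lay between 2.40 and 2.96, so the 20-week HOXB4 arrays sat at the GFP level and the 12-week arrays far above it. The difference was -4.16 ± 0.40 (SE), a 17.8-fold lower signal (limma, adjusted p = 0.00065), and GFP cells gave -0.33 ± 0.40. The difference between both changes was -3.83 ± 0.56 (adjusted p = 0.0044). The 6-week HOXB4 arrays read 5.68, 4.55 and 7.06, all above every GFP array. The call held in 16 of 17 alternatives, the exception being the fit without moderation of variances. The probe set is of a kind shared by several transcripts, and Mup genes are near-identical copies, so which Mup gene gave the signal is uncertain. Mup5, measured by its own probe set, fell by 0.98 (adjusted p = 0.036).

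BC080696 and transcripts of the Speer family followed. BC080696 read 6.93, 7.40 and 6.92 at 12 weeks and 4.80, 4.24 and 3.54 at 20 weeks, with -2.89 ± 0.41 (adjusted p = 0.012). Speer4cos, an opposite-strand transcript of the testis-expressed Speer family, read 7.76, 8.51 and 7.65 at 12 weeks and 5.28, 6.02 and 5.23 at 20 weeks, with -2.46 ± 0.43 (adjusted p = 0.038). Speer8-ps1, a pseudogene of that family, read 7.71, 8.22 and 7.27 and then 5.31, 5.11 and 5.58, with -2.40 ± 0.45 (adjusted p = 0.043). In each of the 3 the time points did not overlap, and GFP cells gave -0.36, -0.33 and -0.55, none of which passed. The predicted gene 2610042L04Rik, outside the naming rule and picked after its values were seen, read 8.62, 8.66 and 8.68 and then 5.86, 6.17 and 6.01 (-2.64 ± 0.33, adjusted p = 0.0080).

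Zfp936, a zinc finger protein gene, read 6.24, 5.69 and 5.65 at 12 weeks and 4.03, 3.54 and 3.21 at 20 weeks. The difference was -2.27 ± 0.31 (adjusted p = 0.011), against -0.16 ± 0.31 in GFP cells. Adam4, of a membrane protease-like family best known from testis and sperm, read 7.17, 7.21 and 7.07 and then 6.00, 5.89 and 6.11. It fell by 1.15 ± 0.17 (adjusted p = 0.014), and its change differed from that of GFP cells by -1.39 ± 0.23 (adjusted p = 0.013).

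The remaining named falls were of Myo3a, Igf1os, BC040756, Prl2c5 and Nufip2. Myo3a, a class III myosin of sensory cells, fell by 1.48, Igf1os, transcribed opposite to Igf1, by 1.42, BC040756 by 1.37 and Prl2c5, of the placental prolactin family, by 1.21, with adjusted p-values of 0.036, 0.027, 0.040 and 0.036. The Myo3a arrays read 5.13, 4.74 and 4.47 at 12 weeks and 3.29, 3.69 and 2.92 at 20 weeks, and the Igf1os arrays 6.91, 7.32 and 7.03 and then 5.57, 5.73 and 5.70. The 20-week values of both genes reached down to those of GFP cells, which spanned 2.75 to 3.26 for Myo3a and 5.42 to 5.73 for Igf1os.

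Nufip2, which encodes an RNA-binding partner of the fragile X protein, read 7.60, 7.58 and 7.61 at 12 weeks and 6.95, 5.98 and 6.30 at 20 weeks (-1.18 ± 0.20, adjusted p = 0.033). Its other probe sets gave 0.41 and -0.40, neither called, and the mean over its probe sets gave -0.39. Outside the naming rule, and picked after their values were seen, 3 more genes are given. Pfas, of purine synthesis, fell by 1.13 (adjusted p = 0.042), Orc2, a subunit of the origin recognition complex, by 0.72 (adjusted p = 0.043) and H3c11, a histone H3 gene, by 0.75 (adjusted p = 0.038). The other probe sets of Orc2 gave 0.05 and -0.46, neither called.

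**Figure D1:**
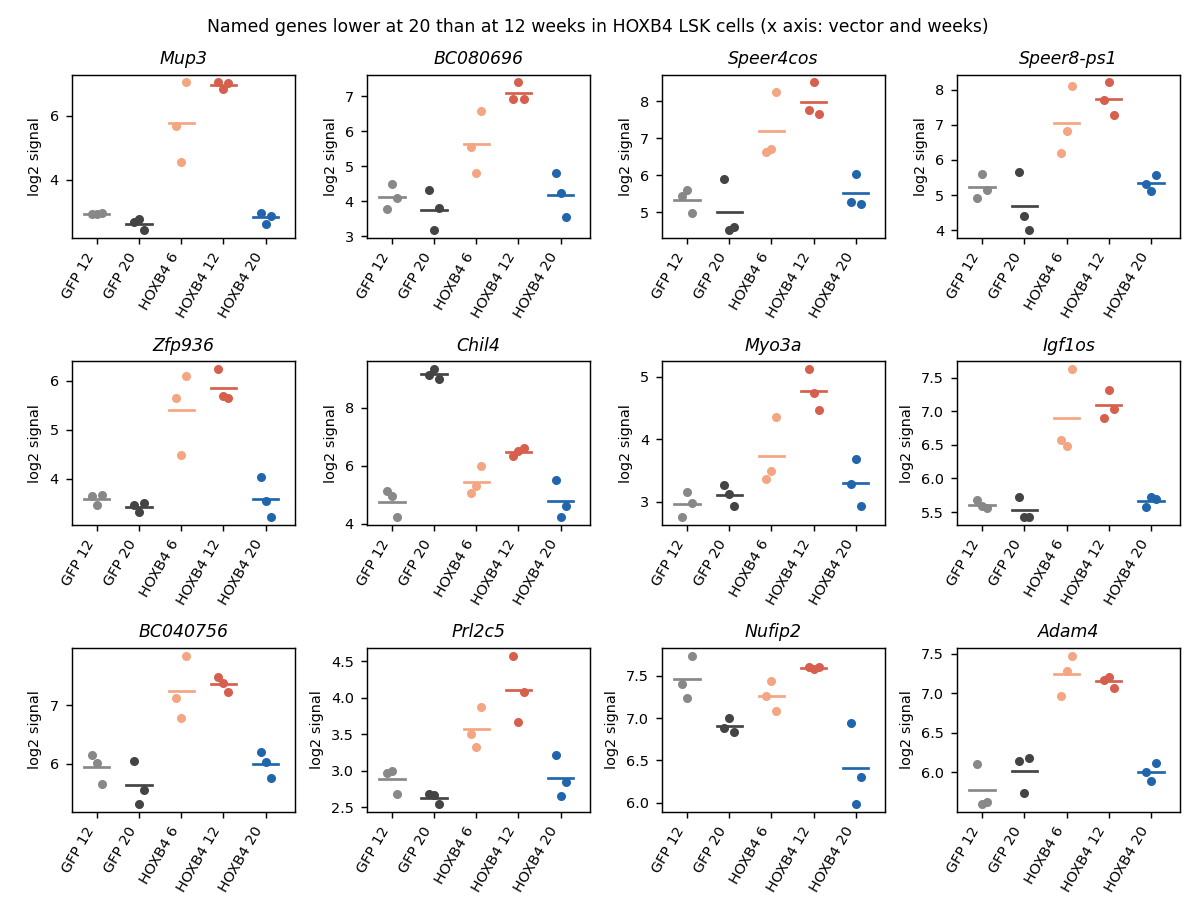
Log2 RMA signal of the 12 named genes that fell, one panel per gene; points are arrays and bars group means of 3 arrays, grouped by vector and weeks. For Mup3 the 12-week HOXB4 arrays sit between 6.83 and 7.05 and the 20-week arrays between 2.62 and 2.96.

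As a group the 32 genes that fell had been high in HOXB4 cells before. On the 6-week HOXB4 arrays, which are no part of the difference but entered the estimate of the spread, 25 of the 32 had all 3 arrays above all 6 GFP arrays, against 8.43% of all genes. Of the 32, 29 had every 6-week array above every 20-week array, against 8.85% of all genes, though the 20-week arrays are those that chose the genes. At 12 weeks 30 of 32 were above GFP cells by their means, against 47.2% of all genes, with a median difference of 1.37, and at 20 weeks the median difference was 0.16. The 12- and 20-week arrays chose the genes, so these values are a description. At 20 weeks 24 of 32 lay within 0.5 log2 units of GFP cells, against 86.6% of all genes. The 20-week mean was below 6 for 25 of 32, against 53.4% of all genes, so most ended among dim signals, where a value may be background. By their names 4 of the 32 probe sets are of a kind shared by transcripts of several genes, and that of Gem, 1 of the 11 genes that rose, by several transcripts of 1 gene. The fall was 1.58-fold to 17.8-fold.

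Gem rose most. It encodes a small GTPase that restrains voltage-gated calcium channels. It read 5.20, 5.71 and 5.20 at 12 weeks and 7.04, 6.48 and 6.76 at 20 weeks, above all GFP arrays, which lay between 4.52 and 5.15. The difference was 1.39 ± 0.25 (2.61-fold, adjusted p = 0.040), against 0.18 ± 0.25 in GFP cells, but the difference between both changes, 1.21 ± 0.35, did not pass (adjusted p = 0.19).

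Tmem245, Lrrc4 and Rhbdd1 came next. Tmem245, a multi-pass membrane protein gene, read 7.25, 7.06 and 7.14 at 12 weeks and 8.12, 8.14 and 9.03 at 20 weeks (1.28 ± 0.20, adjusted p = 0.025). Lrrc4, a synaptic adhesion protein gene, read 6.82, 6.23 and 6.24 and then 7.49, 7.30 and 8.14 (1.22 ± 0.21, adjusted p = 0.038). Rhbdd1, a rhomboid protease gene of the endoplasmic reticulum, read 6.25, 6.44 and 6.15 and then 7.24, 7.21 and 7.73 (1.11 ± 0.21, adjusted p = 0.0495). In all 3 genes replicate 3 was the highest 20-week array, as it was in every other gene that rose but Gem and Ppp1r9a. Replicate 3 also had the highest Dap and Gapdh readings of the 6 arrays, 11.8 and 2.02, whose part was not tested. For Tmem245, Lrrc4 and Rhbdd1 GFP cells gave 0.47, 0.62 and 0.49, which did not pass. The other probe set of Lrrc4 gave 0.19 and the mean of both 0.70.

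Acly, which makes cytosolic acetyl-CoA from citrate, read 8.85, 8.51 and 8.49 at 12 weeks and 9.23, 9.87 and 9.89 at 20 weeks (1.05 ± 0.19, adjusted p = 0.040). Here the 12-week arrays were the low ones, since GFP arrays lay between 9.31 and 9.79 and the 6-week HOXB4 arrays between 9.09 and 9.67. Its other probe set gave 0.27 and the mean of both 0.66.

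The other named genes rose by less than 2-fold. Ralgapa1, which inactivates Ral GTPases, rose by 0.85 (adjusted p = 0.043), N4bp2, which encodes a binding partner of a ubiquitin ligase, by 0.84 (adjusted p = 0.036), and Stk4, the Hippo pathway kinase Mst1, by 0.69 (adjusted p = 0.044). Ppp1r9a, the actin-binding neurabin, rose by 0.57 (adjusted p = 0.043) and Fam193a by 0.54 (adjusted p = 0.043). N4bp2 read 8.60, 8.50 and 8.55 and then 9.21, 9.20 and 9.78, above the GFP arrays at 20 weeks, 8.53 to 8.73. Ppp1r9a was the only gene that rose whose change differed from that of GFP cells, by 0.75 ± 0.15 (adjusted p = 0.045). Adjusted over all named probe sets, this difference missed the threshold (limma, adjusted p = 0.051). The other probe sets of Ppp1r9a gave differences of 0.03, 0.85 and 0.53, none called. Averaged over probe sets, Stk4 gave 0.20, Ralgapa1 0.35 and Ppp1r9a 0.26, each under the value of its brightest probe set by more than 1.5 times. The other probe set of Stk4 went the opposite way in HOXB4 cells, at -0.29, and was not called. Those of Ralgapa1 gave 0.05 to 0.65, none called.

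**Figure D2:**
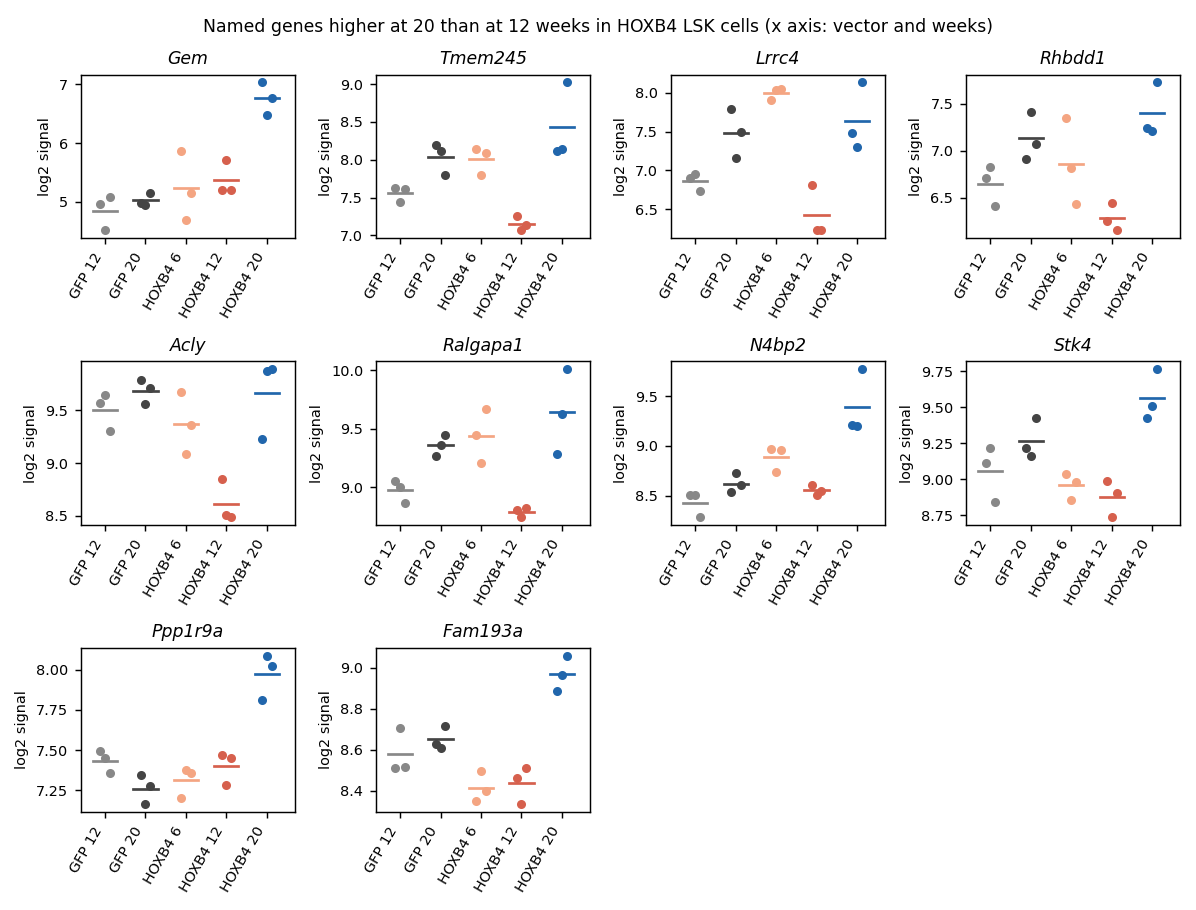
Log2 RMA signal of the 10 named genes that rose, one panel per gene; points are arrays and bars group means of 3 arrays, grouped by vector and weeks. Gem at 20 weeks in HOXB4 cells lies between 6.48 and 7.04, above every other array, while Acly at 12 weeks in HOXB4 cells lies below every other array.

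Among the 11 genes that rose, 2 had all 6-week HOXB4 arrays above all GFP arrays, against 8.43% of all genes, and 1 had them below, against 10.7%, and 6 had every 6-week array below every 20-week array, against 9.31% of all genes. The rise was 1.45-fold to 2.61-fold. All 43 genes separate the 12-week from the 20-week arrays, which 8.49% of all genes did upwards and 10.7% downwards, and which follows from the choice of these genes. The 12-week HOXB4 arrays lay below every other array for 3 of the 11, Acly, Tmem245 and Ralgapa1, against 0.643% of all genes. The 20-week HOXB4 arrays lay above every other array for 4, Gem, N4bp2, Ppp1r9a and Fam193a, against 0.977% of all genes. By their means 2 of the 11 were above GFP cells at 12 weeks, against 47.2% of all genes. The median difference was -0.18 at 12 weeks and 0.30 at 20 weeks. Of the 11, 8 lay within 0.5 log2 units of GFP cells at 20 weeks, against 86.6% of all genes. These arrays chose the genes, and the positions carry no test.

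The GFP cells over the same times share no array with this comparison. Of the 11 genes that rose 1 also rose in GFP cells, A630001G21Rik (0.78 and 0.62), and 10 had the same sign there. Of the 32 that fell 1 also fell in GFP cells, H3c11 (-0.75 and -0.56), 22 had the same sign, and 2 rose there, Chil4 and Cd200r4. Over all genes, 1.23% were called higher and 1.14% lower in GFP cells. By sign alone, 7187 of 17097 genes were positive and 9910 negative there. The median change of the genes that fell was -1.21 in HOXB4 and -0.12 in GFP cells, and that of the genes that rose was 0.85 and 0.21. These medians carry no test, since the choice of the genes fixed the first of each pair.

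The change itself differed between the vectors for 87 genes (0.509%), 21 more positive (0.123%) and 66 more negative (0.386%) in HOXB4 cells. Of these, 9 were among the 43 genes, 1 that rose and 8 that fell. Without 1 array the count of 87 was 47, 54 and 54 for replicates 1, 2 and 3 of GFP at 12 weeks, 57, 38 and 47 for those of HOXB4 at 12 weeks, 39 and 222 for replicates 1 and 3 of GFP at 20 weeks, and 175 and 57 for replicates 1 and 2 of HOXB4 at 20 weeks. Of the 5 largest negative differences that passed, those of Chil3, Lcn2, Camp and Fcnb are of genes on the list of mature neutrophil markers.

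**Figure D3:**
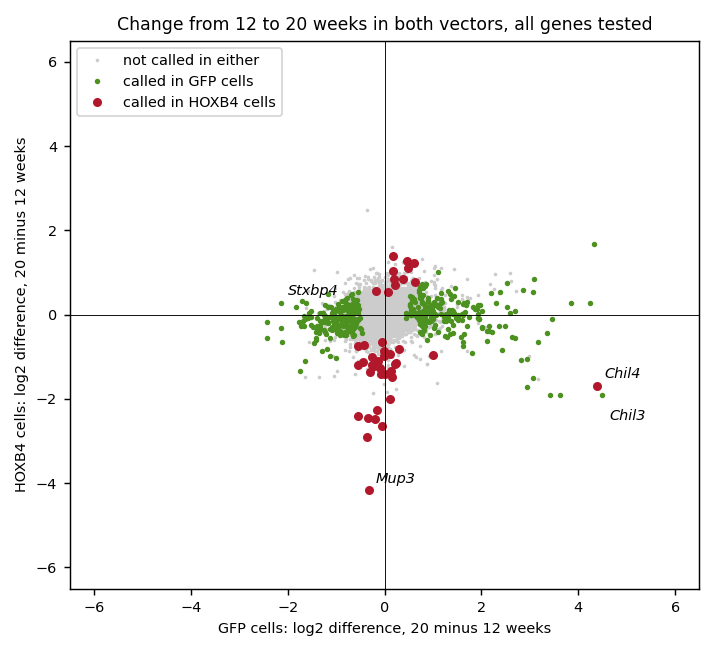
Log2 difference at 20 minus 12 weeks of each of 17097 genes in GFP cells (horizontal) and HOXB4 cells (vertical); red points passed in HOXB4 cells, green in GFP cells, grey in neither. Mup3 lies at -0.33 and -4.16, and Chil4 at 4.39 and -1.69.

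Chil4, a chitinase-like protein gene of myeloid cells, fell in HOXB4 and rose in GFP cells. It read 6.32, 6.49 and 6.59 in HOXB4 cells at 12 weeks and 5.51, 4.24 and 4.60 at 20 weeks (-1.69 ± 0.31, adjusted p = 0.040). In GFP cells it read 5.12, 4.94 and 4.21 and then 9.11, 9.34 and 8.98 (4.39 ± 0.31, adjusted p = 5.3e-06). The difference was -6.07 ± 0.43 (adjusted p = 1.2e-05). The probe set is shared between transcripts, Chil3 is a close relative, and the other Chil4 probe set gave -0.47 in HOXB4 and -0.15 in GFP cells, neither called.

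Chil3, a chitinase-like protein of neutrophils and macrophages, showed the same pattern without passing in HOXB4 cells. It read 6.44, 7.10 and 7.14 at 12 weeks and 6.11, 4.38 and 4.46 at 20 weeks (-1.91 ± 0.56, adjusted p = 0.19), and 4.65 to 5.56 and then 9.42 to 9.71 in GFP cells (4.50 ± 0.56, adjusted p = 0.00053). Lcn2, a siderophore-binding protein of neutrophil granules, gave -1.92 ± 0.64 and 3.63 ± 0.64, Camp, the precursor of the cathelicidin peptide, -1.72 ± 0.55 and 2.95 ± 0.55, and Fcnb, a ficolin of myeloid cells, -1.06 ± 0.31 and 2.94 ± 0.31, in HOXB4 and GFP cells in that order. None of the 3 passed in HOXB4 cells (adjusted p = 0.25, 0.24 and 0.19), all passed in GFP cells, and the differences between both changes, -5.55, -4.66 and -4.00, passed (adjusted p = 0.0100, 0.012 and 0.00073).

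Over the 15 measured markers of mature neutrophils, 0 passed in HOXB4 cells, where the median was -1.06 and 7 were lower at an unadjusted p under 0.05, against 6.07% of all genes. In GFP cells 10 rose, against 1.23% of all genes, and the median was 2.94. In the difference between the changes 7 passed, all negative, against 0.386% of all genes. The mean level of the list was 6.87 to 7.33 on the 12-week and 5.75 to 6.68 on the 20-week HOXB4 arrays, 6.07 to 6.56 and 8.39 to 8.65 on the GFP arrays, and 4.98 to 6.43 on the 6-week HOXB4 arrays. The lineage gate of the sort should leave such cells out, and the part of these markers in the other changes was not tested.

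The 5 largest positive differences between the changes that passed were of genes with negative values in GFP cells. Stxbp4, a syntaxin-binding protein gene, gave 0.28 in HOXB4 and -2.14 in GFP cells, with a difference of 2.43 ± 0.35 (adjusted p = 0.0043). Ptger3, a prostaglandin E2 receptor gene, gave -0.32 and -2.14 (1.82 ± 0.38, adjusted p = 0.0498), and Hmga2, a chromatin protein of fetal stem cells, 0.48 and -1.16 (1.64 ± 0.29, adjusted p = 0.018). Tmprss3, a membrane serine protease gene, gave 1.01 and -0.98 (1.98 ± 0.36, adjusted p = 0.024), and the cytokine gene Il18 0.88 and -0.71 (1.59 ± 0.32, adjusted p = 0.038). Only the GFP falls of Stxbp4, Ptger3 and Hmga2 passed, and none of the 5 passed in HOXB4 cells. Probe sets of 1 gene did not always give the same call for the difference, adjusting over all named probe sets. For Ptger3 the tested probe set then missed the threshold (limma, adjusted p = 0.056) and the other gave 1.18 (adjusted p = 0.41). The other 3 of Hmga2 gave 2.10, which passed (adjusted p = 0.021), 1.01 and 0.40, which did not. Those of Stxbp4 gave 2.25, which passed (adjusted p = 0.023), and -0.15, which did not.

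No regulator of stem cells that was reported in any case passed in HOXB4 cells. Prdm16, a transcription factor of stem cell maintenance, read 5.89, 5.64 and 5.82 at 12 weeks and 6.03, 5.84 and 5.64 at 20 weeks in HOXB4 cells, so the times overlapped (0.05 ± 0.19, adjusted p = 0.95). In GFP cells it rose by 1.31 ± 0.19 (adjusted p = 0.0016), and the difference between the changes was -1.26 ± 0.26 (adjusted p = 0.051). Its other 3 probe sets gave 0.11, 0.55 and 0.47 in HOXB4 cells, none called, and 2.28, 3.50 and 3.68 in GFP cells. There the difference between the changes was -2.16, -2.95 and -3.21 and passed, with p-values of 0.046, 0.027 and 0.0057 by limma adjusted over all named probe sets, so the call for Prdm16 turns on the probe set taken. Mecom, its relative, gave 0.10 ± 0.10, Meis1, a Hox cofactor, 0.04 ± 0.32, and Kit, the receptor used for the sort, 0.04 ± 0.13. Hoxa9 gave -0.36 ± 0.18 in HOXB4 cells and fell by 1.25 ± 0.18 in GFP cells (adjusted p = 0.0018). Hemgn, a nuclear protein gene known as a HOXB4 target, gave -0.45 ± 0.22 and fell by 1.36 ± 0.22 in GFP cells (adjusted p = 0.0039). The difference between the changes did not pass for Hoxa9 (0.89, adjusted p = 0.18) or Hemgn (0.91, adjusted p = 0.27).

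Hoxb4 itself read 6.55, 6.59 and 6.45 at 12 weeks and 5.81, 7.05 and 6.78 at 20 weeks (0.02 ± 0.24). GFP arrays lay between 6.33 and 6.95, so the probe set did not set HOXB4 cells apart. Whether it lies within the part of the gene that the vector carries is not given, and it is no check of the vector. Ptprc, the pan-leukocyte CD45, read 10.1 to 10.3 at 12 and 10.2 to 10.3 at 20 weeks in HOXB4 cells. Sca-1, encoded by Ly6a, was not analysed here.

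Across 45 lists of pathway and cell type genes, 0 of 768 genes measured passed in HOXB4 cells (limma), where 0.252% of all genes did, and 101 of them (13.2%) had an unadjusted p under 0.05 against 11.2% of all genes. Of the 101, 38 were higher and 63 lower, while 871 of all genes (5.09%) were higher and 1037 (6.07%) lower. In GFP cells 71 passed, 36 higher and 35 lower, 9.24% against 2.37% of all genes. In the difference between the changes 12 passed (1.56%), where 0.509% of all genes did.

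Long-term stem cell genes, 24 measured, had a median of -0.06 in HOXB4 and -0.63 in GFP cells, where 2 rose and 4 fell, against 1.23% and 1.14% of all genes. Megakaryocyte genes, 16 measured, had -0.20 and -0.88, with 6 falls in GFP cells. Treml1, a receptor gene of platelets, gave -0.48 in HOXB4 and -0.95 in GFP cells, and Gata1, a transcription factor of megakaryocytes and red cells, -0.43 and -0.92, none of which passed. The median of all genes was -0.01 in HOXB4 and -0.04 in GFP cells.

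Granulocyte-monocyte progenitor genes, 16 measured, had a median of -0.32 in HOXB4 and 0.48 in GFP cells, with 0 called and 6 lower at an unadjusted p under 0.05 in HOXB4 cells, against 6.07% of all genes. Cebpa, the transcription factor that starts the granulocyte programme, read 7.44, 7.37 and 7.37 at 12 weeks and 6.51, 6.59 and 6.53 at 20 weeks. The replicates were close and the times did not overlap, yet the difference of -0.85 ± 0.23 did not pass (adjusted p = 0.14). All GFP arrays were higher, 8.66 to 9.59, and the 6-week HOXB4 arrays read 7.55 to 8.45. Mpo, the myeloperoxidase of primary granules, gave -0.81 ± 0.28 (adjusted p = 0.28), and the granule proteases Prtn3 and Ctsg gave -0.98 and -0.62.

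Erythroid genes, 18 measured, had a median of -0.28 in HOXB4 and -0.57 in GFP cells, with 0 called and 7 lower at an unadjusted p under 0.05 in HOXB4 cells, against 6.07% of all genes. In GFP cells 5 of them fell, against 1.14% of all genes, and 1 rose, against 1.23%. Aqp1, a water channel of red cells, gave -1.33 ± 0.42 in HOXB4 cells and fell by 1.74 in GFP cells, and Car1, a carbonic anhydrase, gave -1.48 and -1.64, neither passing. Aqp1 was lowest on replicate 3 at 20 weeks, at 4.25 against 6.22 and 5.90 on the others.

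B cell markers, 16 measured, had a median of 0.28 in HOXB4 and 1.20 in GFP cells, and the list's mean level was 7.54 to 7.90 at 12 and 7.79 to 8.45 at 20 weeks in HOXB4 cells. Without replicate 1 of the 20-week arrays the median was 0.09. Dendritic cell and MHC class II markers, 12 measured, had a median of 0.17 in HOXB4 and -0.09 in GFP cells, and none passed. In HOXB4 cells 7 values were positive and 5 negative. At an unadjusted p under 0.05, 4 were higher and 1 lower, against 5.09% and 6.07% of all genes. Cd74, the invariant chain of MHC class II, read 8.84, 7.97 and 8.03 at 12 weeks and 9.94, 10.14 and 8.44 at 20 weeks, so the times overlapped (1.23 ± 0.48, adjusted p = 0.34). H2-Aa and H2-Ab1, chains of MHC class II, gave 0.95 and 0.99. Lymphoid priming genes, 15 measured, had a median of 0.28 in HOXB4 and 0.12 in GFP cells. In HOXB4 cells none passed, and 2 were higher at an unadjusted p under 0.05, against 5.09% of all genes. Taken from this list by p, Satb1, a chromatin organiser of lymphoid progenitors, gave 0.65 and Rag2, of antigen receptor recombination, 0.91.

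**Figure D4:**
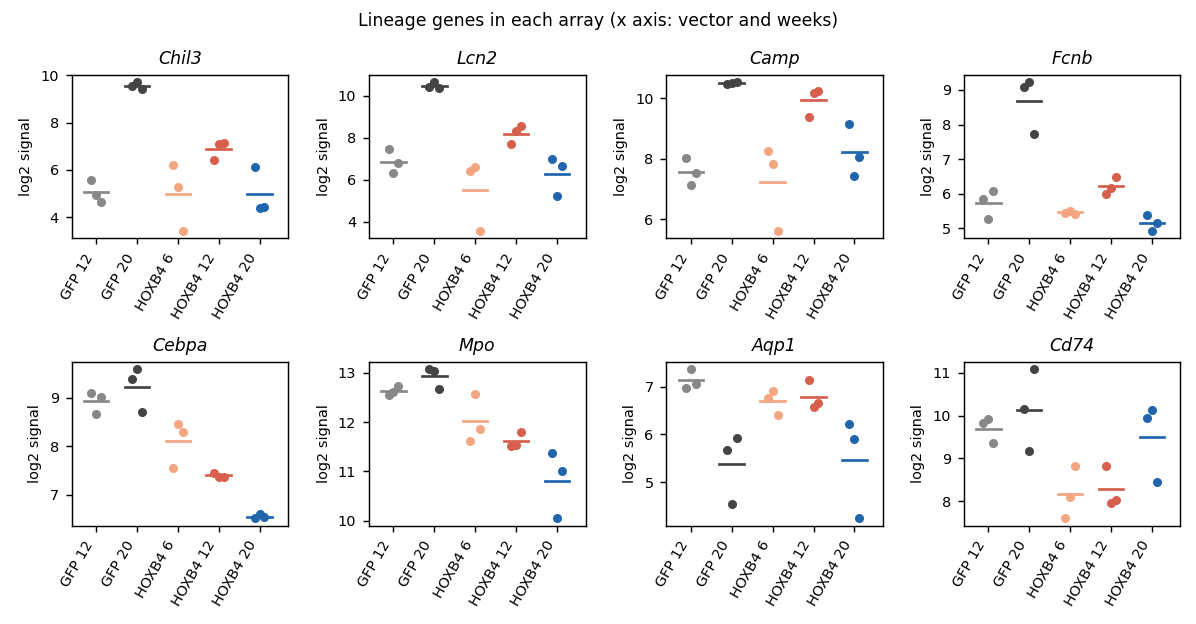
Log2 RMA signal of 8 lineage genes, one panel per gene; points are arrays and bars group means of 3 arrays, grouped by vector and weeks. Cebpa lies between 6.51 and 6.59 on the 20-week HOXB4 arrays and between 8.66 and 9.59 on the GFP arrays, and Lcn2 is highest on the 20-week GFP arrays.

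Myc target genes, 19 measured and most of them of ribosome synthesis, had a median of -0.30 in HOXB4 and -0.25 in GFP cells. The list also holds Ldha, Odc1, Srm, Cad and Eif4a1, genes of other processes. In HOXB4 cells 0 were called and 7 were lower at an unadjusted p under 0.05, against 6.07% of all genes. In GFP cells 1 fell, against 1.14%. Dkc1, the pseudouridine synthase of ribosomal RNA, read 9.87, 9.94 and 9.88 and then 9.51, 9.38 and 9.60 (-0.40 ± 0.10, adjusted p = 0.11). Nop16 gave -0.77 and Polr1b, a subunit of RNA polymerase I, -0.57. Ribosomal proteins, 22 measured, had a median of -0.09, and none had an unadjusted p under 0.05 by limma.

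**Figure D5:**
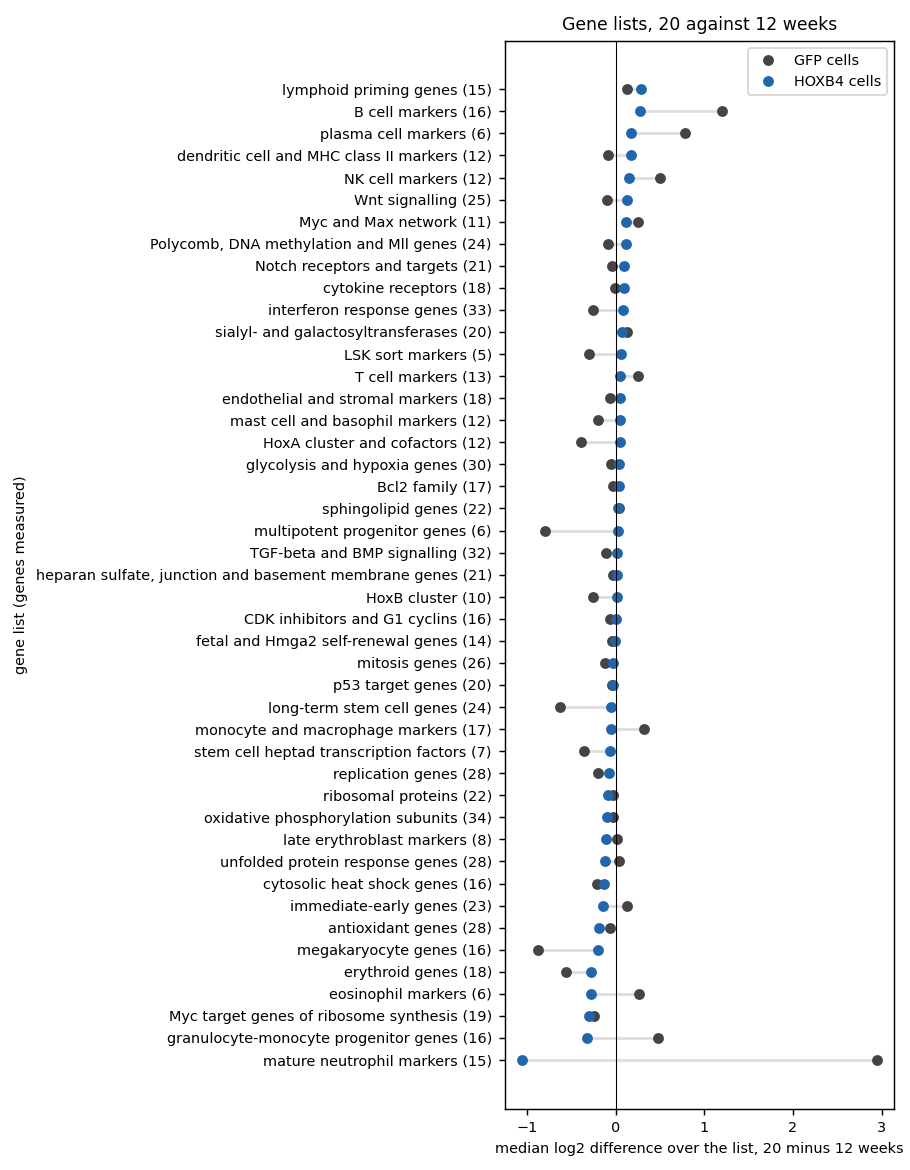
Median log2 difference at 20 minus 12 weeks over each of 45 gene lists, in HOXB4 (blue) and GFP cells (dark), with the number of genes measured in brackets. Mature neutrophil markers lie at -1.06 and 2.94, and most lists lie near 0 in HOXB4 cells.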

How the data were processed

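The 6 arrays of HOXB4 cells at 12 and 20 weeks were compared within a series of 15 arrays in 5 groups of 3. The log2 signals of 45141 probe sets are the authors' own, deposited after RMA in Partek 6.5, as the submitters' processing notes state. RMA brings all arrays to 1 distribution, so a change shared by most genes cannot be seen in these values. The sources used here do not say whether probes were filtered. Without detection calls a low value may be background, and precision rests on the number of arrays.

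The platform annotation named the probe sets, and symbols were brought up to date by gene identifier with the gene table of GRCm38.p6. A single symbol was found for 28898 probe sets and several for 551, which were left unnamed, while 15692 had no entry. Each of the 17097 genes was represented by its brightest probe set over all arrays. One limma 3.58.1 model (lmFit and eBayes, R 4.3.3) held a mean for each of the 5 groups and left 10 residual degrees of freedom beside 4.55 prior ones. Two-sided p-values were adjusted by Benjamini-Hochberg over the 17097 genes, with 0.05 as the threshold. An exact permutation test of 3 arrays against 3 cannot go below 0.1. Errors are standard errors of the model, and the fit was tested on simulated data.

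Named genes are the called genes of largest change, up to 12 per direction, leaving aside predicted genes, olfactory and vomeronasal receptors and small RNAs. To these come 5 per direction for the difference between the vectors, 8 genes reported in any case where measured, and at most 4 per list, taken by p. The genes, the 45 lists (33 of pathways, 12 of cell type markers) and this rule were chosen with earlier results of these data known. The replicate numbers did not pair the arrays. Alternatives changed the arrays in the fit, the probe set taken for a gene, the scaling, the variance model and the replicate block, and left out each array in turn.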

Additional observations from a re-analysis of the deposited data

Results flagged for a closer look

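The change from 12 to 20 weeks differed between HOXB4 and GFP cells for 87 genes by the interaction term of the model, which is why the genes below are listed. Each value is the HOXB4 change minus the GFP change in log2 units.

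Among genes that fell in HOXB4 cells the difference was -3.83 for Mup3, -6.07 for Chil4, -1.39 for Adam4, -2.60 for 2610042L04Rik, -2.11 for Gm3715, -1.95 for Cd200r4, -1.10 for Fbxw23 and -1.05 for Rian, a maternally expressed noncoding RNA. The other probe sets of Rian gave a difference of -0.03, -0.12 and 0.05, none called, and the mean over its probe sets changed by -0.34 in HOXB4 cells, against -0.94 for the brightest. Cd200r4, a receptor of the Cd200r family, fell by 0.95 in HOXB4 cells and rose in GFP cells. Among genes that rose in HOXB4 cells the difference was 0.75 for Ppp1r9a, which missed the threshold when adjusted over all named probe sets (limma, adjusted p = 0.051). Its other probe sets gave 0.03, 0.85 and 0.53, none called.

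Among genes that did not pass in HOXB4 cells the difference was -6.40 for Chil3, -5.55 for Lcn2, -4.66 for Camp and -4.00 for Fcnb. It was 2.43 for Stxbp4, 1.98 for Tmprss3, 1.82 for Ptger3, 1.64 for Hmga2 and 1.59 for Il18.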

How the results depend on the processing

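The count of 43 genes in HOXB4 cells was 18 (0 higher) with only the compared groups in the fit, 20 of 11398 genes with a filter on dim signals, 108 with array weights and 135 without the 6-week arrays. Without moderation of variances limma called 0, with 1795 at an unadjusted p under 0.05. The counts for the difference between the vectors and for GFP cells, 87 and 406, were 183 and 618 with only the compared groups, 22 and 204 without moderation, 563 and 1892 with array weights, and 183 and 625 without the 6-week arrays. Leaving out 1 array at a time gave 1 to 101 genes in HOXB4 cells, 38 to 222 for the difference and 192 to 511 in GFP cells, the cause of which was not tested. Without replicate 1 of the 6-week arrays the counts were 65, 128 and 511. Averaging the probe sets of a gene gave 53 in HOXB4 cells, 20 higher and 33 lower, of which 31 were among the 43.

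Same-numbered arrays of the 12- and 20-week groups did not deviate together, with correlations of -0.0035, -0.021 and -0.032 in HOXB4 and -0.080, -0.17 and -0.11 in GFP cells. With the replicate number as a block the counts were 14 in HOXB4 cells, 76 for the difference and 352 in GFP cells.

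Some values near 0 changed sign. Runx1 (0.25) became -0.019 with the mean of its probe sets, and Hoxb4 -0.015 with array weights. With 1 array left out, Hoxb4 ranged from -0.23 to 0.38, negative without 12-week replicate 3 (-0.023) and 20-week replicates 2 and 3 (-0.098 for the latter). Prdm16 ranged from -0.046, without 20-week replicate 1, to 0.15, and was -0.022 without 12-week replicate 2. Meis1 ranged from -0.24 to 0.28 and Kit from -0.10 to 0.15, both lowest without 20-week replicate 2, and were -0.21 and -0.027 without 12-week replicate 2. Of 360 medians of lists under alternatives, 338 moved by less than 1 SD between replicates and 22 by more. No called gene took the opposite direction with a call under any alternative.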

Other observations

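The genes given next, taken by p from different lists, did not pass in HOXB4 cells. Asah1, the acid ceramidase, gave 0.54 ± 0.11 (adjusted p = 0.074) and rose by 0.72 in GFP cells. Uhrf1, which guides maintenance DNA methylation, gave 0.56 ± 0.13 (adjusted p = 0.090) in HOXB4 and -0.11 in GFP cells, and Pole, a DNA polymerase subunit, 0.61 and -0.22. Both are on the list of replication genes, 28 measured. In HOXB4 cells 13 of these were positive and 15 negative, with a median of -0.08. Cdkn1b, the cell cycle inhibitor p27, gave 0.40 ± 0.11 (adjusted p = 0.14) and -0.18. Aen, a nuclease induced by p53, gave -0.57 ± 0.13 (adjusted p = 0.090) and -0.34.

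Genes of TGF-beta signalling gave values of both signs. Tgfbr1, the type I receptor, gave -0.73 ± 0.18 (adjusted p = 0.11) in HOXB4 and -0.43 in GFP cells. Skil, an inhibitor of the pathway, gave 0.75 ± 0.24 (adjusted p = 0.24) and 0.46. Of 32 measured genes of TGF-beta and BMP signalling 0 passed in HOXB4 cells by limma, 6 had an unadjusted p under 0.05, against 11.2% of all genes, and the median was 0.01.

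The gene with the largest positive difference in HOXB4 cells, Mab21l2, picked after its values were seen, gave 2.49 and did not pass (adjusted p = 0.14).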
